A study of Mus musculus with 8 samples.

Results

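Hox genes were measured in XX and XY gonads of mouse embryos at embryonic day 11.5, wild type or labelled as Kdm6b-null. The 38 Hox genes described here were matched by gene symbol among the 48440 genes of the deposited tables. They comprise 10 genes of the Hoxa cluster, 10 of Hoxb, 9 of Hoxc and 9 of Hoxd, and were read by cluster and by paralog number, the position that matching genes share across clusters. The matching used names and no measured value, although the set was chosen with earlier results of these data known. The study had 4 groups of 2 libraries each, XY wild type, XY Kdm6b-null, XX wild type and XX Kdm6b-null, and each library held RNA of 2 pooled pairs of gonads. The null embryos are labelled as a Kdm6b knockout, while the missing part of the gene and the mouse strain are not stated in the labels. The labels list the cell type as pre-granulosa (XX) or pre-Sertoli (XY), yet no sorting is described. The values are therefore read as whole dissected tissue, in which fewer cells of a type cannot be told apart from less RNA per cell. No label states whether 2 pools shared a litter, and p-values measure the spread between pools only.

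Hox genes encode homeodomain transcription factors that give cells their position along the head-to-tail axis. In each cluster, genes of low paralog number are switched on earlier and further forward in the embryo, and genes of high paralog number later and further back, with the last ones active in the tail end, the distal limb, the genital tubercle and the cloacal region. Polycomb proteins keep silent genes of a cluster under a methyl mark on histone H3 that KDM6B, a histone demethylase, can remove. In the urogenital tract, members of the middle and posterior groups pattern the kidney and the genital ducts.

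The Hoxa members spanned 98.5 kb on the minus strand of chromosome 6 in GRCm38 (chr6:52162417-52260880). The Hoxb members spanned 174 kb on chromosome 11 (chr11:96194316-96368256), where Hoxb13 stands apart from the rest. The Hoxc members spanned 116 kb on chromosome 15 (chr15:102921103-103036852) and the Hoxd members 96.8 kb on chromosome 2 (chr2:74668310-74765142), all 3 of these clusters on the plus strand. Promoter windows of 300 bases (250 before and 50 after the RefSeq start, GRCm38.p6) were found for 22 members. Where a member had several, only the first listed was used. Those windows held a median of 13.5 CG dinucleotides (range 4 to 45), against 7 over all 32851 windows of the table. Of the 22, 18 were at or above that overall median. The CG-rich start is a property that the rule did not use, and 4 windows with 9 to 37 such dinucleotides are given as examples. Hoxa6, Hoxa7 and Hoxd9 are shown because both null libraries lay above both wild type libraries in XY and in XX, and Hoxd13 because its XY wild type libraries differed 13.2-fold. Each is written 5′ to 3′ with CG dinucleotides in capitals.
Hoxa6, chr6:52208623-52208922, minus strand: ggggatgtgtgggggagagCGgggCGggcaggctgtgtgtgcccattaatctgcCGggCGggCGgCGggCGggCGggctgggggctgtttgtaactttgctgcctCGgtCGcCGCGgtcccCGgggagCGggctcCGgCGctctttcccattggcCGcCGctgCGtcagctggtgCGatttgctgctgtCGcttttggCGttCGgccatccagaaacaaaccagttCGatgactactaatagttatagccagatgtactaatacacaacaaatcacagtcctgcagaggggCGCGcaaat
Hoxa7, chr6:52218524-52218823, minus strand: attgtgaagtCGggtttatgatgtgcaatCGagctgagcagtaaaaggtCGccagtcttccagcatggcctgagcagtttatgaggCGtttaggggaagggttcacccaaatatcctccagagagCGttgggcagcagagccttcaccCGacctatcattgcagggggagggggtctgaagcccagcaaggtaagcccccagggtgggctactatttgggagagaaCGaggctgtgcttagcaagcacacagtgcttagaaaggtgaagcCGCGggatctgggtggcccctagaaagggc
Hoxd9, chr2:74697513-74697812, plus strand: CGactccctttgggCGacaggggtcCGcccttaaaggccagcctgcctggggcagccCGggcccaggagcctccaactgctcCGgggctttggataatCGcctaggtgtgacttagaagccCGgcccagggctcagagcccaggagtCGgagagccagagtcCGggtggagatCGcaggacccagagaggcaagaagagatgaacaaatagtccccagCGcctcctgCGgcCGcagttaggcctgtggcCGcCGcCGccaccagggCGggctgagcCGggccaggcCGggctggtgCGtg
Hoxd13, chr2:74667975-74668274, plus strand: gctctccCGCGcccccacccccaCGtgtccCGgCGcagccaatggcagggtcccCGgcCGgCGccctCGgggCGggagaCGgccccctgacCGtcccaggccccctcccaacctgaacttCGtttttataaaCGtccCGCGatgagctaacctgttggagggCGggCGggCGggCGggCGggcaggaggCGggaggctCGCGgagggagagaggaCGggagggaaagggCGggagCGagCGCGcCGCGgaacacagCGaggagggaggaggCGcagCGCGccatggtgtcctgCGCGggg
The Hoxa6 window held 26 CG dinucleotides, Hoxa7 9, Hoxd9 20 and Hoxd13 37. A CDX-type motif, TTTATNG on either strand, occurred in 2 member windows (9.09%), Hoxb8 and Hoxd4 with 3 matches each, and in 10.9% of all windows. A HOX-PBX-type motif, TGATNNAT on either strand, occurred in 3 member windows (13.6%), Hoxa2, Hoxb1 and Hoxb8, and in 8.85% of all windows. Window 2 of Hoxd11, which was not counted, held 1 match. These matches describe letters in the windows only.

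Normalized counts summed to 18550930 to 20031750 per library, which is after scaling and does not measure depth. In smallest steps of each library, which could not be shown to be single reads, the sums were 19107103 to 19828638. The XY and XX tables were normalized separately, so that levels of the sexes stand side by side and are not compared. Kdm6b itself was lower in both null groups. It was at 3399 and 3181 counts in XY wild type against 1238 and 1037 in XY null. In XX, the wild type libraries held 2218 and 2796 and the null libraries 1249 and 1125. Its groups did not overlap, although neither log2 fold change (-1.54 in XY and -1.07 in XX) passed by limma after adjustment over all genes (adjusted p = 0.12 and adjusted p = 0.19). Both passed by the count model of the authors' deposited table. It gave log2 fold changes of -1.53 in XY (adjusted p = 8.2e-25) and -1.08 in XX (adjusted p = 7.1e-07). Markers of the gonadal soma were present in every library, and so were markers of mesonephric duct, germ cells, endothelium, macrophages and red blood cells. XX wild type replicate 1 stood apart through 11142 counts of the liver gene Afp, against 7.21 to 163 in the other libraries. XX wild type replicate 2 stood apart through Tbx4 (427 counts, against 18.2 to 101 elsewhere) and Tbx5 (398, against 1.99 to 52.8). Both are on the limb and body wall marker list, where Pitx1 (351) and Fgf10 (473) were also highest in that library. Prrx1, Msx1 and Lmx1b of the same list were not. Of the hindgut and cloaca markers, Shh (329.8), Foxa1 (279) and Foxa2 (113) were highest there too, while Cdx2 and Krt19 were not. In XY null replicate 2 the 5 erythroid genes summed to 146763 counts, against 42466 to 72297 in the other XY libraries. Counts and medians of the Hox genes by cluster and position are also given without single libraries.

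Of the 38 Hox genes, 36 reached a mean of 10 normalized counts in XY and 35 in XX. Hoxc12 and Hoxc13, which act in hair follicles, were at 0 to 0.996 counts in every library, and Hoxb13, a gene of the tail end and the prostate, fell under that mean in XX (0 and 12.1 in wild type, 8.97 and 3.03 in null). A value of 0 allows up to 2.91 to 3.09 normalized counts, the worth of 3 reads if the smallest step of a library is 1 read. In XY, Hoxb13 was at 34.6 and 0 in wild type and at 21.5 and 0 in null. With a library at 0 in each group, its fitted log2 fold change in XY (-0.33) depends on the 1 added to each value.

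Per kilobase of annotated exon, mean wild type levels were low at paralog 1 and at most 139 per kb beyond paralog 10 (Hoxd13 in XY). The highest means of the Hoxa and Hoxb clusters were those of Hoxa5 and Hoxb6 in both sexes. In Hoxc the highest was Hoxc6 in XY and Hoxc10, level with Hoxc4, in XX. In Hoxd it was Hoxd9 in XY and Hoxd10 in XX. Hoxc, which begins at Hoxc4, had no low start. In XY wild type gonads the highest mean levels were those of Hoxa5 (567 normalized counts per kb), a gene of lung and gut mesenchyme, and Hoxc6 (561 per kb), followed by Hoxc8 (392 per kb), Hoxc4 (388 per kb) and Hoxc10 (382 per kb). Libraries of the first 2 overlapped, as did those of the last 3, and the order within each set is not resolved. In XX wild type gonads Hoxa5 was again highest at 631 per kb, followed by Hoxb6 (372 per kb), Hoxc10 (367 per kb), Hoxc4 (366 per kb) and Hoxa6 (354 per kb). The libraries of these last 4 overlapped. At the head end the hindbrain gene Hoxb1 reached 6.82 per kb in XY and 25.4 per kb in XX wild type, and Hoxd1 21 and 10.4 per kb. Summed over all 38 genes, XY wild type gave 18505 and 15792 counts and XY null 23137 and 21456. In XX they summed to 16175 and 17227 in wild type and to 23189.5 and 20071 in null. Both null libraries thus lay above both wild type libraries in each sex.

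**Figure D1:**
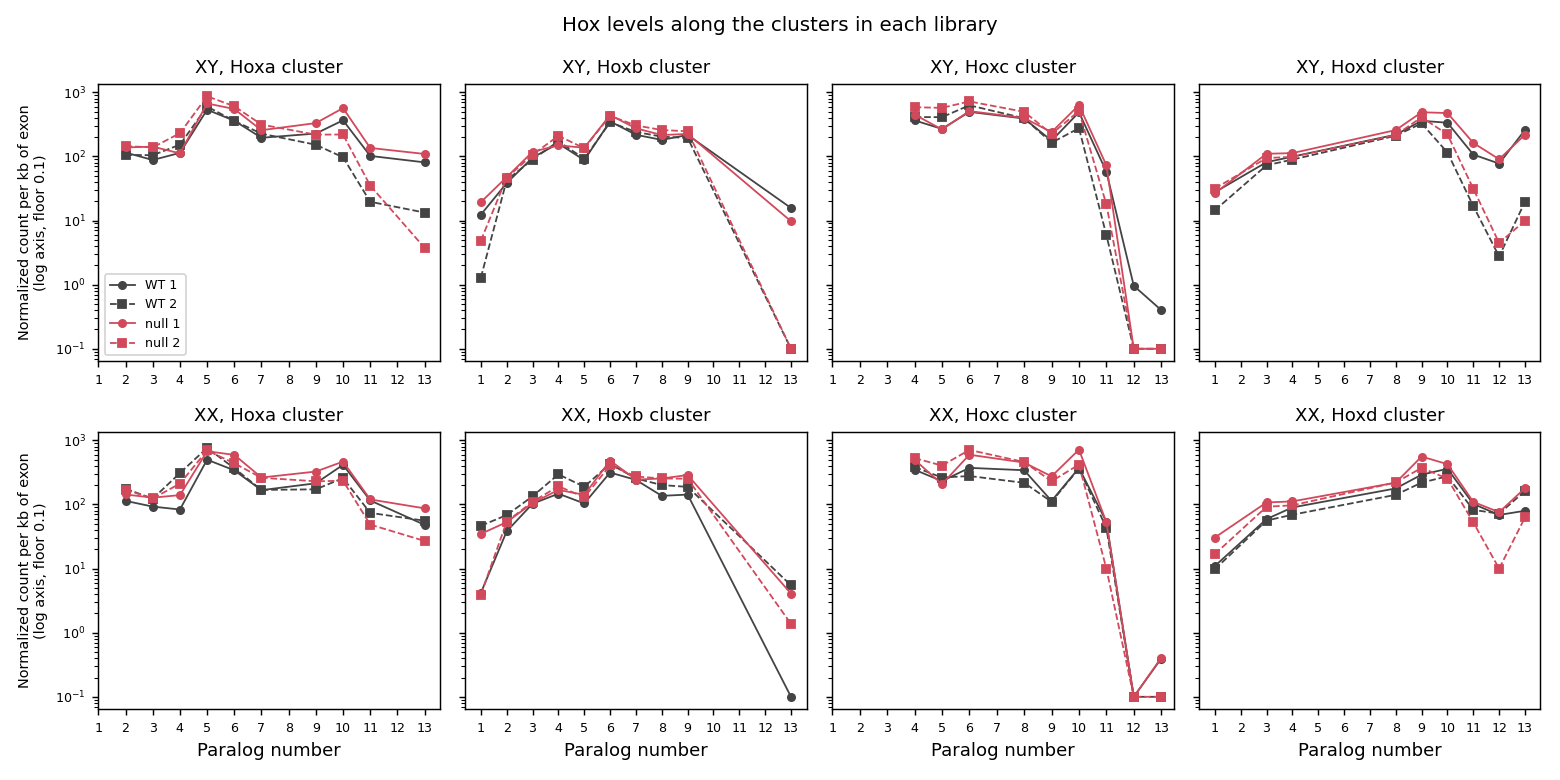
Normalized counts per kb of exon (log axis, values under 0.1 drawn at 0.1) against paralog number, by cluster and sex, with 1 line per library (black wild type, red null, circles replicate 1, squares replicate 2). The lines of the 4 libraries lie closer together at most genes from paralog 2 to 9, with wider gaps at genes such as Hoxa4 and Hoxc5 and, in XX, Hoxc6. In XY the replicate 2 library of each genotype lies below the replicate 1 library of the same genotype at paralogs 10 and 11.

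The comparison of null with wild type was made gene by gene on log2(normalized count + 1) with limma, within each sex. No gene of 16821 tested in XY and none of 17028 in XX passed an adjusted p of 0.05 (0% each). At an unadjusted p under 0.05 there were 834 genes in XY and 2383 in XX. In XY, 355 of the 834 (2.11% of all genes tested) were higher in the null, and 12 of the 36 Hox genes were among them. In XX, 1591 of the 2383 (9.34% of all genes tested) were higher in the null, and 13 of the 35 Hox genes were among them. No Hox gene had an unadjusted p under 0.05 in the other direction, where 2.85% of all genes did in XY and 4.65% in XX. The authors' deposited table, from a count model, called 0 Hox genes in XY, where 0.123% of the genes with an adjusted p were called higher. For XX the authors' deposited table called 5 of 35 Hox genes higher and 0 lower, against 1.95% of all genes called higher and 0.823% called lower. These 5 were Hoxa7, Hoxc6, Hoxc9, Hoxd3 and Hoxd9. The limma calls in XX turned on the wild type libraries that stood apart. Without XX wild type replicate 1, 8 Hox genes passed as higher (2.41% of all genes tested) and Hoxb4 as lower. Without XX wild type replicate 2, 12 passed as higher (14% of all genes tested). Hoxa7, Hoxc4, Hoxc6, Hoxc8, Hoxc9 and Hoxd3 passed in both of these fits, in which the lone wild type library is assumed to vary like the other group.

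The Hox genes were first read by position. In 3 bands of paralog number, the log2 fold change in XY was positive for 7 of 7 genes of paralogs 1 to 3 (median 0.41), 15 of 15 of paralogs 4 to 8 (median 0.30) and 11 of 14 of paralogs 9 to 13 (median 0.49), where 50% of all genes tested were positive. In XX it was positive for 5 of 7 (median 0.14), 13 of 15 (median 0.40) and 7 of 13 (median 0.02), where 50.1% of all genes tested were. A boundary at paralog 10, within the last band, was chosen after the values were seen. Over paralogs 1 to 9, 26 of 26 genes had a positive log2 fold change in XY, with a median of 0.35, where the median over all genes tested was 0. In XX, 22 of 26 were positive with a median of 0.43. Both null libraries lay above both wild type libraries for 17 of the 26 in XY (16.6% of all genes tested) and for 15 of the 26 in XX (27% of all genes tested). Over paralogs 10 to 13 the null was above wild type without overlap for 1 gene in each sex, Hoxc10. In 0 of the Hox genes tested did both null libraries lie below both wild type libraries, in either sex, where 16.3% of all genes did so in XY and 22.5% in XX. Of paralogs 10 to 13, 7 of 10 genes were positive in XY (median 0.62) and 3 of 9 in XX (median -0.10). Without single libraries, the positive count over paralogs 1 to 9 was 22 to 26 in XY. In XX it was 18 without wild type replicate 1 and 26 without wild type replicate 2. Over paralogs 10 to 13 the direction turned on single libraries. In XY, 10 of 10 were positive without wild type replicate 1 or without null replicate 2, but 1 of 10 without wild type replicate 2 and 3 of 10 without null replicate 1. In XX, 9 of 9 were positive without null replicate 2 and 1 of 9 without null replicate 1, with 4 and 3 of 9 without wild type replicates 1 and 2.

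**Figure D2:**
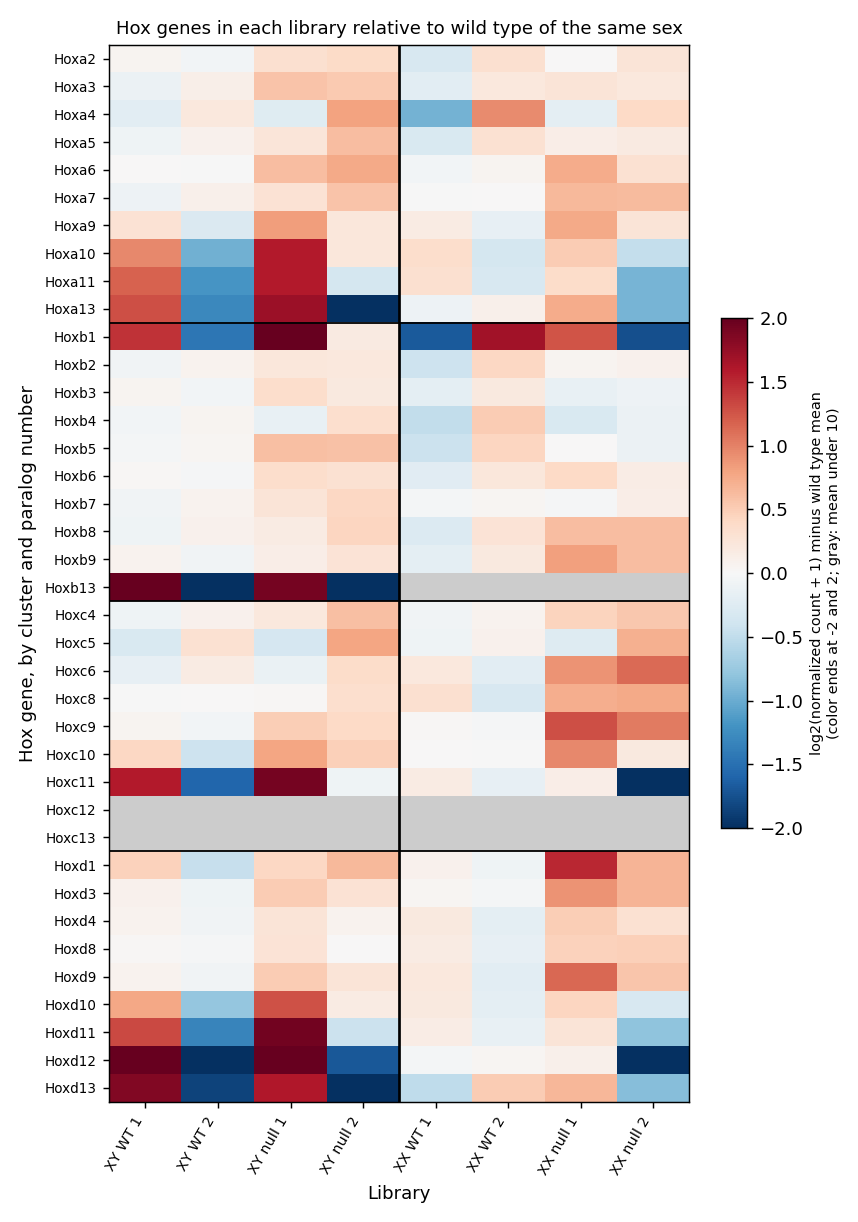
Level of each Hox gene (rows, ordered by cluster and paralog number) in each of the 8 libraries (columns), as log2(normalized count + 1) minus the wild type mean of the same sex, with gray where the mean was under 10. Up to paralog 9 the null columns are mostly red in both sexes, whereas from paralog 11 on the XY columns alternate by replicate, with replicate 1 red and replicate 2 blue in both genotypes.

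In both sexes together, 25 of the 35 Hox genes tested had a positive log2 fold change, against 29% of all genes tested in both. Both null libraries lay above both wild type libraries in both sexes for 11 of the 35, against 6.37% of all genes. The 11 were Hoxa3, Hoxa6, Hoxa7, Hoxb8, Hoxb9, Hoxc4, Hoxc8, Hoxc9, Hoxc10, Hoxd3 and Hoxd9, so that every cluster was represented. The size of the difference in one sex did not follow that in the other (Pearson r = -0.14 and Spearman rho = -0.17 across the 35 genes, which share libraries and are not independent).

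In the Hoxa cluster, 9 of 10 genes were positive in XY (median 0.48) and 8 of 10 in XX (median 0.15). Hoxa6, a gene of thoracic identity, was at 315 and 313 counts in XY wild type against 479.9 and 529 in XY null, a log2 fold change of 0.68 (SE 0.11, limma adjusted p = 0.36). In XX it was at 298 and 321 in wild type and at 519 and 383 in null (log2 fold change 0.53, SE 0.18). Hoxa6 had the smallest adjusted p of any Hox gene in XY, and its null libraries were above wild type in both sexes. Hoxa7, its neighbor of the same axial region, was at 481 and 485 counts in XX wild type against 757 and 749.6 in XX null. That difference, a log2 fold change of 0.64 (SE 0.10), passed in the authors' deposited table (log2 fold change 0.64, adjusted p = 0.017) and not by limma (adjusted p = 0.22). In XY, Hoxa7 was at 562 and 651 in wild type and at 738 and 903 in null (log2 fold change 0.43, SE 0.14). A sequence antisense to Hoxa7, Hoxaas3, covers 20.4% of its exon bases, and whether reads were counted by strand is not stated.

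Hoxa3, which patterns the third pharyngeal arch and its glands, was at 529 and 628 counts in XY wild type against 855 and 832 in XY null (log2 fold change 0.55, SE 0.11, limma adjusted p = 0.63). Its XX values, 557 and 739 against 768 and 746, did not overlap either but nearly met. Hoxa9, a gene of the oviduct, was at 1194 and 961 in XX wild type against 1819.6 and 1283 in XX null (log2 fold change 0.51, SE 0.20), and its XY groups overlapped. Hoxa5 was at 1005 and 1125 counts in XY wild type against 1258 and 1629 in XY null, while its XX groups overlapped. Hoxa2 was higher in the XY null (204 and 188 against 245 and 257) and overlapped in XX. Hoxa4 overlapped in both sexes and was higher in replicate 2 than in replicate 1 in all 4 groups, from 181 and 243 in XY wild type to 133 and 493 in XX wild type. Without XX wild type replicate 1, 4 of the 7 Hoxa genes up to paralog 9 were positive in XX (median 0.03), and without XX wild type replicate 2 all 7 were (median 0.46).

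In the Hoxb cluster the sexes differed in appearance. In XY, 9 of 10 genes were positive with a median of 0.29, and the null was above wild type without overlap for 7 (16.6% of all genes tested). In XX, 5 of 9 were positive with a median of 0.06, and the null was above without overlap for 2 (27% of all genes tested). Hoxb5, known from the enteric nervous system, was at 244 and 256 counts in XY wild type against 380.4 and 374 in XY null (log2 fold change 0.59, SE 0.12, limma adjusted p = 0.59). In XX it was at 289 and 526 in wild type, which enclosed the null values of 394 and 361. Hoxb6 was at 692 and 669.9 in XY wild type against 866 and 843 in XY null (log2 fold change 0.33, SE 0.08), and Hoxb7 at 336 and 372 against 424 and 470.4 (log2 fold change 0.34, SE 0.12). In XX, Hoxb6 was at 618 and 844 in wild type and at 948 and 800.1 in null, which overlapped. The 2 genes that did not overlap in XX were Hoxb8 and Hoxb9. As 2 of 9 is no more than the share of all genes, it is not read as a pattern by position. Hoxb9, a rib-patterning gene, was at 367 and 484 in XX wild type against 741 and 649 in XX null (log2 fold change 0.72, SE 0.17, limma adjusted p = 0.26). Hoxb8 was at 359 and 529 in XX wild type against 669.6 and 669.8 in XX null (log2 fold change 0.62, SE 0.20), a value that was 0.34 without wild type replicate 1 and 0.90 without wild type replicate 2.

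The XX result for Hoxb turned on the wild type libraries. Up to paralog 9 its median was -0.32 with 4 of 9 genes positive without XX wild type replicate 1, and 0.49 with 9 of 9 positive without XX wild type replicate 2. The latter library, the one with high Tbx4 and Tbx5, held 757 counts of Hoxb4 against 378 in replicate 1, and 1431 of Hoxa5 against 937. It held less Hoxc6 (669 against 897) and Hoxc8 (616 against 968). Hoxb1, a hindbrain gene, had the widest ratio between libraries of 1 group among the Hoxb genes tested in XX, with 9.7 and 108 counts in wild type and 80.7 and 9.09 in null. In XY it was at 28.7 and 2.99 in wild type and 44.9 and 11.3 in null. The part of Tbx4, Tbx5 or the tissue they mark in these values was not tested.

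The Hoxc cluster held 2 of the 5 Hox genes called higher in XX in the authors' deposited table, Hoxc9 and Hoxc6. Hoxc9, which sets thoracic motor neuron identity and rib pattern, was at 276 and 268 counts in XX wild type against 666 and 559.7 in XX null. That is 2.24-fold (log2 fold change 1.16, SE 0.14), with the smallest adjusted p of any Hox gene in XX by limma (0.19). The difference passed in the authors' deposited table (log2 fold change 1.17, adjusted p = 1.9e-05). In XY, Hoxc9 was at 428 and 398 in wild type and at 581 and 545 in null (log2 fold change 0.45, SE 0.10), again without overlap. Hoxc6, a gene of forelimb-level identity, was at 897 and 669 in XX wild type against 1438 and 1707 in XX null, a log2 fold change of 1.02 (SE 0.18, limma adjusted p = 0.26). It passed in the authors' deposited table (log2 fold change 1.01, adjusted p = 0.00019). In XY, Hoxc6 overlapped, with 1193 and 1510.3 in wild type and 1226 and 1736 in null.

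Hoxc4 was higher in the null of both sexes, from 895 and 984 to 1281 and 1358 counts in XX (log2 fold change 0.49, SE 0.10) and from 937 and 1056 to 1155 and 1505 in XY (log2 fold change 0.41, SE 0.15). Hoxc8, a brachial motor neuron gene, was at 968 and 616 in XX wild type against 1275 and 1301 in XX null (log2 fold change 0.74, SE 0.22), and at 1104 and 1116 against 1126 and 1404 in XY. Hoxc10, a gene of hindlimb-level identity, was higher in the null without overlap in both sexes (932 and 526 against 1208 and 974 in XY, 708 and 694 against 1368 and 799 in XX). Hoxc5 overlapped in both sexes and, like Hoxa4, was higher in replicate 2 of all 4 groups, for example 814 and 1767 in XY null. Up to paralog 9, all 5 Hoxc genes were positive in each sex, with medians of 0.23 in XY and 0.74 in XX. In XY, 3 of the 5 stayed positive without wild type replicate 1 (median 0.17) and 3 without null replicate 2 (median 0.02).

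In the Hoxd cluster all 5 genes up to paralog 9 were positive in each sex, with medians of 0.38 in XY and 0.79 in XX. In XX, both null libraries were above both wild type libraries for all 5 (27% of all genes tested), and the 5 stayed positive without any single library. In XY they stayed positive as well, with a median of 0.11 without wild type replicate 2. Hoxd9 was at 623 and 468 counts in XX wild type against 1194 and 795 in XX null (log2 fold change 0.85, SE 0.24, limma adjusted p = 0.29), and passed in the authors' deposited table (log2 fold change 0.87, adjusted p = 0.032). In XY it was at 768 and 699.8 against 1044 and 873 (log2 fold change 0.38, SE 0.12). Hoxd3 was at 248 and 235 in XX wild type against 450.4 and 386 in XX null (log2 fold change 0.79, SE 0.14, limma adjusted p = 0.26), and passed in the authors' deposited table (log2 fold change 0.79, adjusted p = 0.03). Its XY values were 341 and 305 against 461 and 396. Hoxd3 shares 62.3% of its exon bases on the same strand with Hoxd4 and Gm28230, and Hoxd4 shares 52.3%, so that the values of either may hold reads of the other.

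Hoxd8 was at 488 and 388 counts in XX wild type against 601 and 604 in XX null (log2 fold change 0.47, SE 0.15). Hoxd1, a gene of sensory neurons, was near the low end, at 20.4 and 18.2 in XX wild type against 56.8 and 31.3 in XX null (log2 fold change 1.09, SE 0.40). In XY its groups overlapped at 51.4 and 26.9 against 49.7 and 58.7.

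**Figure D3:**
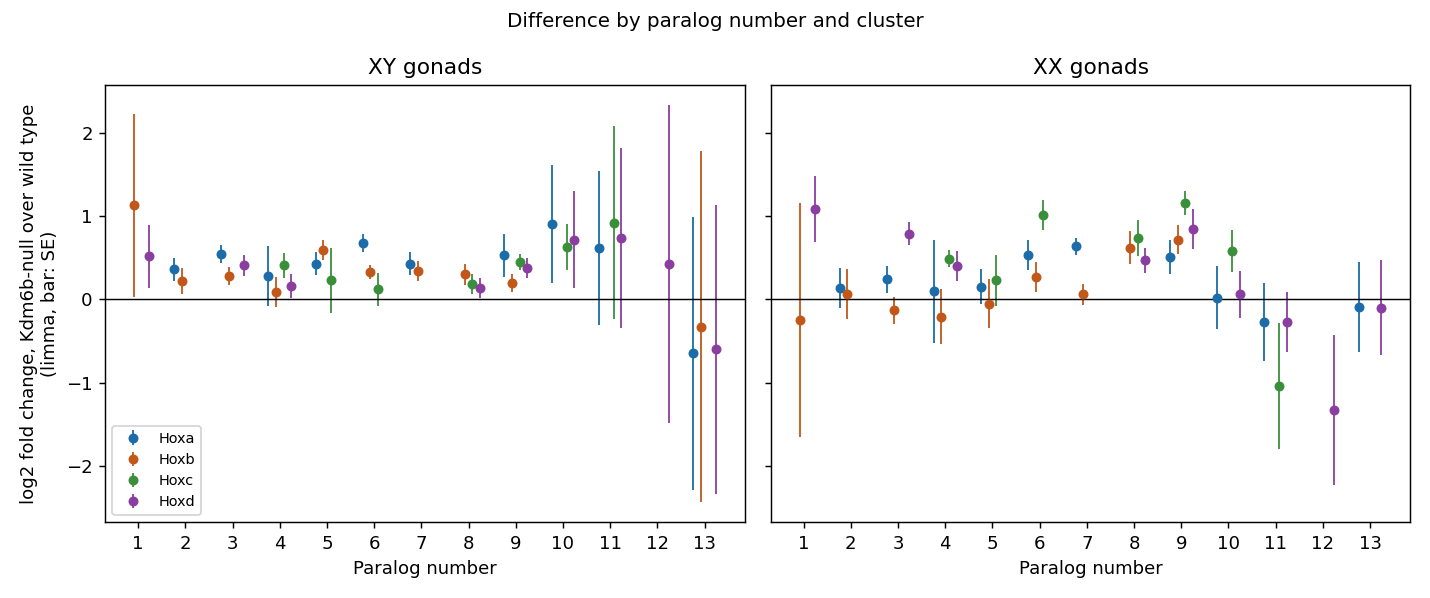
Log2 fold change of null over wild type for each Hox gene tested, with its limma standard error, against paralog number in XY (left) and XX (right), colored by cluster. In XY every point from paralog 1 to 9 lies above 0, the error bars are wide at Hoxb1 and at most genes from paralog 10 on, and in XX all Hoxc and Hoxd points up to paralog 9 lie above 0 while 4 Hoxb points lie below it.

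Whether the sexes differed was tested as the XY minus XX difference of the 2 log2 fold changes. None of 16943 genes passed (0%), and 1425 had an unadjusted p under 0.05, 2.7% of all genes with the larger value in XY and 5.71% with the larger value in XX. The Hox genes with an unadjusted p under 0.05 were Hoxc9 (difference -0.72, SE 0.17, limma adjusted p = 0.57), Hoxc6 (-0.90, SE 0.30, adjusted p = 0.57) and Hoxb9 (-0.52, SE 0.21, adjusted p = 0.59). Each of these 3 had the larger value in XX. By cluster, the difference was positive for 6 of 7 Hoxa and 7 of 9 Hoxb genes up to paralog 9, and for 0 of 5 Hoxc and 0 of 5 Hoxd genes, where 48% of all genes were positive. The medians were 0.18, 0.28, -0.56 and -0.38. Without single libraries the medians ran from -0.03 to 0.51 for Hoxa, -0.20 to 0.56 for Hoxb, -0.74 to -0.23 for Hoxc and -0.50 to -0.18 for Hoxd. XX wild type replicate 2 was the library without which the Hoxa and Hoxb medians turned negative and the Hoxc median was -0.23, and the Hoxd median was -0.18 without XX null replicate 1. All 5 Hoxd genes stayed negative without each library in turn, and 0 to 2 of the 5 Hoxc genes became positive.

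Paralogs 10 to 13 differed widely between libraries of one genotype. In XY the 12 genes summed to 4614 and 1269 counts in the wild type libraries and to 6129 and 2387 in the null libraries, replicate 1 being high and replicate 2 low in both genotypes. No label ties a replicate number to a litter or batch. Their share of all Hox counts was 24.9% and 8.04% in XY wild type against 26.5% and 11.1% in XY null. In XX it was 24.8% and 19.6% in wild type and 23.2% and 13.1% in null. In the Hoxd cluster the share reached 48.1% and 15.2% in XY wild type, 47.2% and 20.5% in XY null, 46.9% and 52.1% in XX wild type and 41.6% and 29.1% in XX null. For Hoxd in XX both null shares were thus below both wild type shares, while in XY, and for Hoxa and Hoxc in XX, the groups overlapped.

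In XY the replicates lay further apart beyond paralog 9 than at it. In XY wild type the median ratio of replicate 1 to replicate 2 was 1.1 for paralog 9, 2.91 for paralog 10, 6.36 for paralog 11, 28.1 for paralog 12, where only Hoxd12 entered, and 8.94 for paralog 13. In XY null the ratios were 1.13, 2.15, 4.09, 20.2 and 25.3. In XX wild type they were 1.13, 1.31, 1.25, 0.954 and 0.653, and in XX null 1.3, 1.71, 2.47, 7.61 and 3.04. Hoxd13, a gene of the digits, genital tubercle and cloaca, was at 643 and 48.8 counts in XY wild type against 542 and 24.7 in XY null. Its XX values were 198 and 403 in wild type and 446 and 156 in null. Hoxa13, which acts in the same tissues, was at 199.8 and 32.9 in XY wild type against 270.2 and 9.26 in XY null. Hoxd12 was at 196 and 6.98 in XY wild type against 229 and 11.3 in XY null, and at 174 and 182 in XX wild type against 192 and 25.3 in XX null. No difference by genotype was detectable for these genes with 2 libraries a group.

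The kidney and uterus genes of paralogs 10 and 11 did the same. Hoxa10, which patterns the uterus, was at 1197 and 317 counts in XY wild type against 1854 and 719 in XY null, a log2 fold change of 0.91 with an SE of 0.71. Hoxa11 was at 233 and 44.9 in XY wild type against 310.2 and 80.3 in XY null, and in XX at 264 and 169 against 274 and 111. Hoxd11, a gene of the metanephric kidney, was at 450.1 and 70.8 in XY wild type against 684 and 132 in XY null (log2 fold change 0.74, SE 1.08). Hoxc11 was at 117 and 12 in XY wild type against 147 and 36 in XY null, and at 109 and 87 in XX wild type against 107 and 20.2 in XX null. Hoxd10 was at 609 and 209 against 862 and 400.4 in XY and at 654 and 499.7 against 772 and 459.7 in XX.

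In XY, 4 of the 5 listed markers of the hindgut and cloaca were, like these genes, higher in replicate 1 of both genotypes, namely Shh, Foxa1, Foxa2 and Cdx2. The signalling gene Shh was at 230.5 and 14 counts in XY wild type against 239 and 14.4 in XY null, and Foxa1 at 129.6 and 4.98 against 157 and 8.23. Cdx2, which specifies intestine and posterior tissue, was at 46.5 and 0.997 in XY wild type against 53.6 and 0 in XY null. The epithelial keratin gene Krt19, the remaining marker, was at 405 and 296 in XY wild type and went the other way in XY null, at 350.2 and 499. The 5 markers summed to 826 and 317 in XY wild type, compared with 825 and 524 in XY null. In XX the sums were 591 and 1103 in wild type and 642 and 832 in null. In XX wild type Shh was at 25.2 and 329.8, while paralogs 10 to 13 summed to 4013 and 3372 and paralog 13 alone to 318 and 552. In XX null Shh was at 158 and 158, with sums of 5372 and 2628 for paralogs 10 to 13 and 672 and 225 for paralog 13. Pitx1, a hindlimb gene, was at 197 and 23.9 in XY wild type against 106 and 11.3 in XY null. Of the other 6 genes on the limb and body wall list, Fgf10 and Lmx1b were likewise higher in replicate 1 of both XY genotypes, while Tbx5 (18.8 and 52.8 in wild type, 5.85 and 22.6 in null) and Msx1 (245 and 316, 157 and 250.1) were higher in replicate 2 of both. Tbx4 (48.5 and 68.8, 101 and 36) and Prrx1 (2094 and 2164, 2269 and 1522) were higher in replicate 2 of wild type and in replicate 1 of null. The part of these tissues in the posterior Hox values was not tested.

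**Figure D4:**
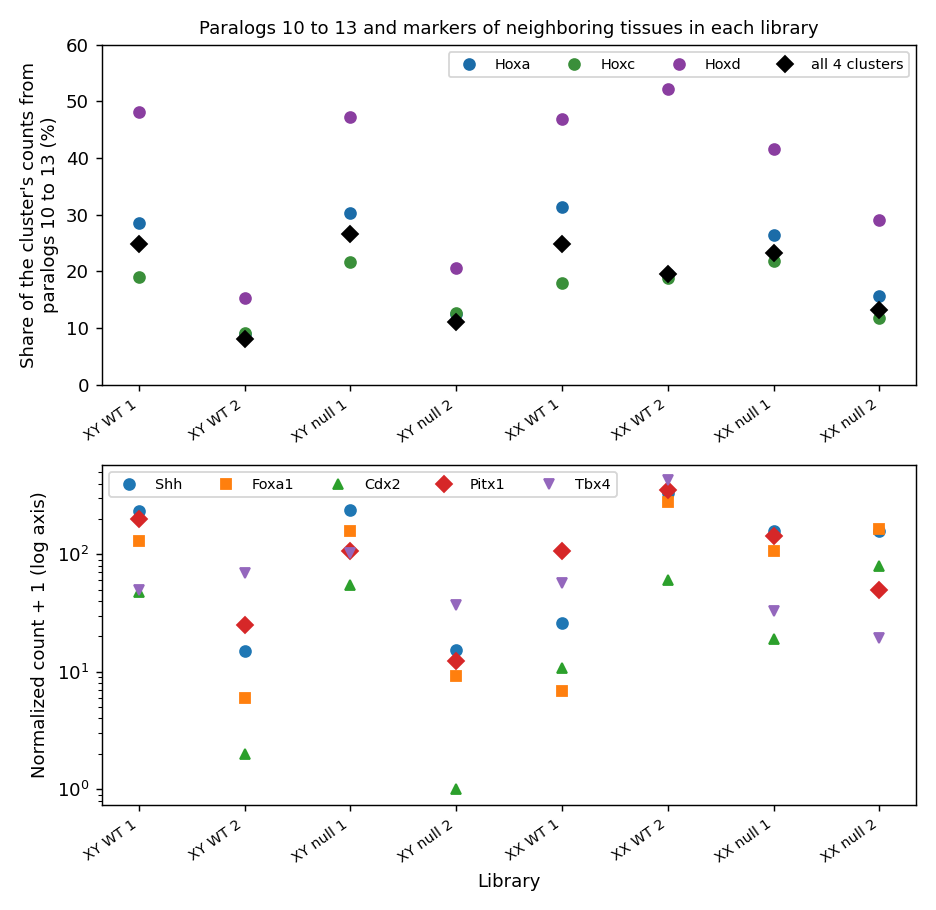
Top, share of the counts of the Hoxa, Hoxc and Hoxd clusters and of all 4 clusters that came from paralogs 10 to 13, in each library. Bottom, Shh, Foxa1, Cdx2, Pitx1 and Tbx4 in the same libraries (normalized count + 1, log axis). In XY both replicate 1 libraries are high in the posterior share, Shh, Foxa1, Cdx2 and Pitx1 and both replicate 2 libraries low.

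Genes around and inside the clusters gave a local reference. Of the 22 flanking genes listed, 17 were tested in XY, with 10 positive and a median of 0.05, and 18 in XX, with 7 positive and a median of -0.06. Evx1 and Evx2, the homeobox genes next to Hoxa13 and Hoxd13, varied like their neighbors, with Evx2 at 153 and 6.98 counts in XY wild type against 101 and 0 in XY null. Of the 41 other genes inside the clusters, mostly antisense and long noncoding RNAs, 21 were tested in XY, with 17 positive and a median of 0.22. In XX 20 were tested, with 8 positive and a median of -0.10. The null lay above wild type without overlap for 6 in XY (16.6% of all genes tested) and 4 in XX (27%). It lay below without overlap for 1 in XY (16.3% of all genes tested) and 2 in XX (22.5%). Haglr, a noncoding RNA of the Hoxd cluster, was at 181 and 144 in XY wild type against 216 and 199.7 in XY null, and at 144 and 115 against 178 and 157 in XX. Hotair, a noncoding RNA between Hoxc11 and Hoxc12, was at 23.7 and 1.99 in XY wild type against 33.2 and 4.12 in XY null. There its replicates lay apart as those of the posterior genes did. In XX, Hotair was lower in the null without overlap, at 31 and 27.3 in wild type against 14.9 and 3.03 in null. That log2 fold change was -1.91 (SE 0.73, limma adjusted p = 0.35). Mir196a-1, a microRNA gene of the Hoxb cluster, was lower in the null in both sexes (33.6 and 40.9 against 25.4 and 16.5 in XY, 41.7 and 43.5 against 34.9 and 22.2 in XX), although these are reads of polyadenylated RNA at its locus and not the mature microRNA.

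Of the 35 genes listed as Hox regulators and cofactors, 32 were tested in each sex. In XY 17 were positive (50% of all genes tested), with a median of 0.01, and 7 had an unadjusted p under 0.05. Of these 7, 5 were higher in the null, as were 2.11% of all genes tested, and 2 were lower, as were 2.85%. The 2 lower genes were Cyp26b1 and Kdm6b itself, the gene that the knockout label names. The 5 were the Hox partner genes Pbx3, Meis1, Meis2 and Meis3 and the Polycomb gene Ring1. Meis2 was at 6893 and 6267 counts in XY wild type against 9556 and 8064 in XY null (log2 fold change 0.42, SE 0.11). Cyp26b1, which degrades retinoic acid, an inducer of Hox genes, was at 1164 and 882 in XY wild type against 649.6 and 671 in XY null (log2 fold change -0.62, SE 0.14). In XX it was at 455 and 516 in wild type and at 599.9 and 539 in null. In XX 25 of the 32 were positive (50.1% of all genes tested) with a median of 0.21, and 19 without wild type replicate 1. An unadjusted p under 0.05 was found for 13, of which 9 were higher (9.34% of all genes tested) and 4 lower (4.65%). Kdm6b itself was again among the lower genes. Meis3 was at 667 and 976 in XX wild type against 1466 and 1376 in XX null (log2 fold change 0.81, SE 0.19), the highest of the list by limma. The histone H3 methyltransferase gene Ezh2 overlapped in both sexes, at 4248 and 4183 against 4265 and 4075 in XY.

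Markers of other cell types are set beside the Hox genes of paralogs 1 to 9. In XY the 6 gonadal soma markers had a median log2 fold change of -0.43, with 1 positive, and summed to 14330.3 and 15882 counts in wild type and 10089.8 and 14406 in null. The 8 mesonephric and duct markers had a median of 0.04 in XY and summed to 3841 and 3540.0 in wild type and 3473 and 4463 in null. In XX the soma markers had a median of 0.31 with 5 positive, and the mesonephric markers a median of 0.37 with 6 positive and sums of 3602 and 2472 in wild type and 3658 and 2809 in null. None of the markers on these 2 lists was at 0 in any library. The limb and body wall list had medians of -0.20 in XY and -0.24 in XX, and the muscle and paraxial mesoderm list 0.04 and 0.43. For the neural list they were 0.04 in XY, with 2 genes tested, and -0.31 in XX, with 3 genes tested. The endothelial list had medians of -0.22 in XY and 0.49 in XX and the erythroid list 0.45 and -0.82. The macrophage list had medians of 0.49 in XY and -0.04 in XX, the germ cell list 0.78 and -0.22 and the adrenal cortex list 0.06 and -1.14. For the liver list they were -0.11 in XY, with 2 genes tested, and -4.67 in XX. Several of these medians rested on 1 library. Without XX wild type replicate 1 the XX medians were -1.57 for liver, 1.32 for germ cells and 0.38 for the adrenal cortex. Without XX wild type replicate 2 they were 0.02 for the gonadal soma and 0.10 for the mesonephros and duct. Without XY null replicate 2 the XY median was -0.27 for the erythroid list and 0.10 for limb and body wall, and without XY wild type replicate 1 it was -0.08 for germ cells. The neural gene Olig2 was at 0 in all 8 libraries. The part of any of these tissues in the Hox values was not tested.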

How the data were processed

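Polyadenylated RNA was sequenced as paired reads of 100 bases from a kit that marks strand, per the labels' protocols, which speak of 4 samples where 8 are listed. Tools in the submitters' processing notes are STAR 2.7.11, cutadapt 4.9, DESeq2 2.11.40.8 and featureCounts 2.0.8, with the builds mm10 and GRCm38. For the annotation release, strand setting and shared reads, the sources used here give nothing. The signal values are counts that the authors divided by size factors, separately for XY and XX, so that levels are not compared across sexes. In each library 100% of values were whole multiples of one smallest step (tolerance 1e-06), summing to 19107103 to 19828638 steps. The authors' deposited tables also give log2 fold changes, a score (the Wald statistic), p-values and adjusted p-values. All 8 libraries were used, grouped by their titles, and 0 value columns were unmapped.

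Log2(normalized count + 1) was tested with limma 3.58.1 (R 4.3.3; variance trend; Benjamini-Hochberg adjustment over all genes with a mean of at least 10), within each sex with 2 residual and 3.5 (XY) or 3.35 (XX) prior degrees of freedom, and for XY minus XX over all 8 libraries. The procedure was tested on simulated data. Sums and summaries were made with Python 3.11.15. Exon overlaps and lengths came from GENCODE M21, where the intervals of all 38 genes were the same, and promoter windows from RefSeq. The Hox genes and all other lists were chosen with earlier results of these data known. Named genes were, per cluster and sex, the 3 with the smallest unadjusted p, those with the largest and smallest fold change, and those called in any table. Other genes are named with their values where a paragraph turns on them, chosen after those values were seen. Alternatives were other pseudocounts, filters and scalings, a replicate block, 1 joint fit, no variance trend and leaving out each library.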

Additional observations from a re-analysis of the deposited data

Results flagged for a closer look

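Hoxb3 is listed because its null libraries lay on opposite sides of wild type in the 2 sexes. Both XY null libraries (502 and 451 counts) lay above the XY wild type mean of 393, and both XX null libraries (448 and 467) lay below the XX wild type mean of 504. The log2 fold changes were 0.28 in XY and -0.13 in XX. The test of the difference itself gave 0.40 (SE 0.20, limma adjusted p = 0.62), which did not pass. The XX wild type libraries, at 437 and 570.5, enclosed both null values. Of its exon bases, 52.9% lie opposite the antisense gene Hoxb3os.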

How the results depend on the processing

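No gene passed in any comparison under other pseudocounts, filters or scalings (which moved the median of all genes by less than 0.1 on the log2 scale), while other fits gave calls. In XY, 23 genes passed with the replicate block, 1 without the variance trend and 0 to 2 without single libraries. In XX, 2 passed with the replicate block, 10 in 1 fit of all 8 libraries and 0 to 3550 without single libraries. For XY minus XX, 0 to 43 passed without single libraries. No Hox gene passed with the replicate block or in XY under any setting, and Hoxc9 passed in the joint fit in XX (limma adjusted p = 0.044). The labels do not pair same-numbered libraries, whose deviations correlated at 0.24 in XY and -0.06 in XX across genes.

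Without single libraries, the XY medians ran from 0.40 to 0.59 for Hoxa, 0.26 to 0.30 for Hoxb, 0.22 to 0.40 for Hoxc, 0.07 to 0.98 for Hoxd, 0.30 to 0.42 for paralogs 1 to 3, 0.24 to 0.43 for paralogs 4 to 8 and -0.31 to 1.59 for paralogs 9 to 13. The XX medians ran from 0.04 to 0.45 for Hoxa, -0.32 to 0.49 for Hoxb, 0.56 to 0.72 for Hoxc, 0.30 to 0.58 for Hoxd, -0.18 to 0.49 for paralogs 1 to 3, 0.34 to 0.46 for paralogs 4 to 8 and -0.48 to 0.66 for paralogs 9 to 13. With no filter on low values the Hoxc median was 0.23 in XY and 0.53 in XX, and with quantile normalization 0.52 in XX. Without 1 library the sign changed for 14 of 36 Hox genes in XY (9 of the 10 of paralogs 10 to 13) and 18 of 35 in XX (8 of the 9). Among the genes named by rule, in XX these were Hoxc11 (-2.21 to 0.13), Hoxd12 (-2.77 to 0.11), Hoxa11 (-0.92 to 0.37) and Hoxb1 (-1.93 to 1.42, and 0.00 with quantile normalization), and among the others in XX were Hoxb3 (-0.32 to 0.07), Hoxb4 (-0.71 to 0.29) and Hoxb5 (-0.48 to 0.38). In XY the named ones were Hoxa10 (-0.05 to 1.86), Hoxc11 (-0.67 to 2.52), Hoxc6 (-0.13 to 0.37), Hoxd13 (-2.80 to 1.60), Hoxb1 (-0.32 to 2.57), Hoxa13 (-3.01 to 1.72), Hoxd11 (-0.58 to 2.07) and Hoxb13 (-2.91 to 1.91), and among the others were Hoxa11 (-0.56 to 1.79), Hoxd10 (-0.05 to 1.48) and Hoxd12 (-1.89 to 2.74). The cause was not tested. The planned count models were not run, since the values could not be shown to be raw reads. With 2 pools a group and low counts at both ends of the clusters, differences of the size of the library spread were not detectable.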
